A study of Homo sapiens with 8 samples.

Results

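Kinesins are motor proteins that use ATP to move along microtubules or to take them apart. Those that build, hold or sever the mitotic spindle are made mainly in cells that are dividing, while the transport kinesins carry vesicles, organelles and ciliary cargo in interphase. The motors act in assemblies: a KIF5 heavy chain binds light chains, and KIF3A pairs with KIF3B and the adaptor KIFAP3 in the kinesin-2 motor. The members were chosen by symbol, KIF followed by a number and an optional letter, with pseudogenes and antisense genes left out. Of 39 such protein-coding genes, 38 had a probe set annotated to that gene only, among 19752 genes in all, and KIF4B had none. The 38 genes were divided by their known main role into 12 mitotic kinesins, 13 transport kinesins and 13 others, a division made for this work.

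RNA came from DLD-1, an established line of human colorectal adenocarcinoma cells. There were 4 cultures with 50 nM miR-143 duplex and 4 mock-transfected cultures without it, numbered 1 to 4 in each group. All were exposed to Lipofectamine 2000 and harvested 24 h later. The mock cells received no control duplex, so an effect of any duplex and that of miR-143 itself cannot be told apart. All values below are log2 values after RMA, the method that corrects background, normalizes between arrays and summarises the probes of a set, and a log2 fold change is the miR-143 mean minus the mock mean.

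Mature miR-143-3p is shown because its bases 2 to 8, in capitals, are the seed that pairs with targets. The sequence is from RefSeq (chr5:149428978-149428998, plus strand, GRCh38.p14).
hsa-miR-143-3p: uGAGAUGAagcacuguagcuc
A transcript that pairs with this seed holds the letters UCAUCUC. No 3'UTR sequence was used here, so no kinesin was searched for them.

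The 2 arrays numbered 4, 1 of each group, lay far from the other 6 on a first principal component with 66.9% of the variance, at 25.7 and 26.7 against −18.8 to −4.25. The defining epithelial markers EPCAM, CDH1, KRT8 and KRT18 belong to a list of 10 whose mean level was 10.3 to 10.9 per array with miR-143 and 10.5 to 10.9 in mock. The median log2 fold change was −0.069, with all 10 negative over the 8 arrays. It was −0.029 without mock replicate 4 and −0.087 without replicate 4 of both groups. LGALS4, at 7.11 and 7.14, lay near the array medians of 7.26 to 7.33. The lists of fibroblast, endothelial and leukocyte markers had mean levels of 6.91 to 7.35 per array, and that of neuronal markers had 7.31 to 7.56. The highest single gene of these lists was the neuronal MAP2, at 8.48 with miR-143 and 8.49 in mock. The epithelial VIL1 (7.55 and 7.65), CDX1 (7.73 and 7.74) and CDX2 (8.29 and 8.32) lay below it, so the epithelial list was not high throughout. The log2 difference between 3' and 5' probe sets, which grows as RNA breaks down, was 1.68 to 2.79 for ACTB and 0.41 to 0.72 for GAPDH, with the lowest value of both in mock replicate 3.

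Compared without pairing, none of the 38 kinesins passed the test. KIF3B lay lower with miR-143 and fell when same-numbered arrays were taken as pairs, KIF1C, KIF3A and KIF25 lay higher in every miR-143 array than in any mock array, and the median log2 fold change of mitotic kinesins lay below that of transport kinesins, by less than the spread between unpaired arrays. By limma without pairing 0 of 38 kinesins had an adjusted p under 0.05, as did 0 of all 19752 genes (0%), and the lowest adjusted p among the kinesins was 0.9999. At an unadjusted p under 0.05 there were 1 lower kinesin, KIF9, and 2 higher, KIF1C and KIF3A, beside 1.7% of all genes lower and 0.714% higher (2.41% in all). With the replicate number as a pair, limma called 1 kinesin of 38, KIF3B, which was lower, beside 0.79% of all genes, 0.623% lower and 0.167% higher. At an unadjusted p under 0.05 with pairs there were 5 lower and 3 higher kinesins, beside 6.92% and 2.64% of all genes (9.55% in all), and the 5 lower ones were KIF3B, KIF9 and the mitotic KIF15, KIF11 and KIF2C. All 4 miR-143 arrays lay above all 4 mock arrays for 3 kinesins, beside 0.719% of all genes, and below them for 0, beside 1.24% (1.95% in either direction). The p-values without pairing measure the spread between these cultures, which the study gives as biological replicates. Those with pairing measure the spread of the differences within replicate numbers.

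**Figure D1:**
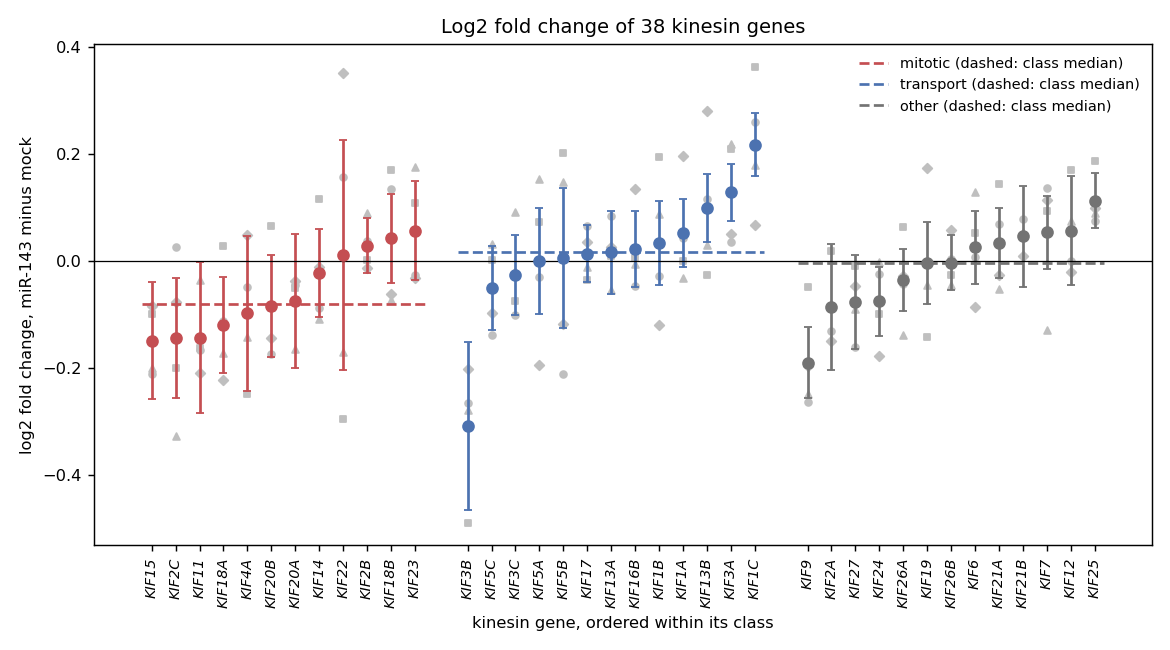
Difference on the log2 scale (miR-143 minus mock) for 38 kinesin genes in 3 classes, ordered within each class. Coloured points are limma estimates over all 8 arrays with bars of 1 standard error, grey symbols the difference within each replicate number (circle 1, square 2, triangle 3, diamond 4) and dashed lines the class medians, which lie at −0.080 for mitotic, 0.016 for transport and −0.0027 for other kinesins.

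KIF3B, a motor subunit of kinesin-2, which moves cargo along cilia and in the cytoplasm, had the most negative log2 fold change of the 38. With miR-143 its values were 9.11, 9.01, 8.88 and 9.54 in replicates 1 to 4, and in mock they were 9.38, 9.50, 9.16 and 9.75. The groups overlapped, since replicate 4 was the highest array of each, but the miR-143 array was the lower one within every replicate number, by 0.20 to 0.49. The mean over miR-143 arrays was 9.14 ± 0.29 and that over mock arrays 9.45 ± 0.25 (SD, n = 4 each). The log2 fold change was −0.31, so that the level on the linear scale dropped by 19.3%. The standard error was 0.16 without pairing (limma, adjusted p = 0.9999) and 0.057 with pairing (limma, adjusted p = 0.0353). The exact two-sided permutation test of the 8 arrays, which takes no account of pairs, gave p = 0.2. Both probe sets of KIF3B were lower in all 4 replicate numbers, and the second had a log2 fold change of −0.26. KIF3B is on the study's list of putative targets, and since that list was drawn from the same arrays, the direction has no independent support there. The list also required a miR-143 seed site in the 3'UTR, a criterion of sequence that was not checked here. The call with pairing ended when any 1 replicate number was left out (limma, adjusted p = 0.0865 to 0.144). The log2 fold change was −0.21 without mock replicate 4 and −0.34 without replicate 4 of both groups.

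KIF3A, the partner of KIF3B in the same motor, went the other way by the probe set used, that of highest mean. Its values were 8.76, 8.84, 8.86 and 8.76 with miR-143 and 8.72, 8.63, 8.65 and 8.71 in mock. Every miR-143 array lay above every mock array, with the narrowest margin in replicates 1 and 4. The log2 fold change was 0.13 (standard error 0.054, limma without pairing, unadjusted p = 0.0402, adjusted p = 0.9999), and the exact two-sided permutation p of 0.0286 was the smallest that 70 splits can give. The second KIF3A probe set had a log2 fold change of −0.13 and was lower in all 4 replicate numbers. The 2 probe sets of this gene thus disagreed in sign, and the mean of both gave −0.0018. KIF3C, which can take the place of KIF3B beside KIF3A, had 7.76, 7.71, 7.92 and 7.63 with miR-143 and 7.86, 7.78, 7.83 and 7.66 in mock. These groups overlapped, and the log2 fold change was −0.026 (standard error 0.075). The adaptor KIFAP3, named after its value was seen, had one of 0.016 (standard error 0.061).

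KIF1C, a kinesin-3 motor that carries vesicles to the cell periphery, had the most positive log2 fold change of the 38. Its values were 9.34, 9.35, 9.26 and 9.22 with miR-143 and 9.08, 8.99, 9.08 and 9.15 in mock. All 4 miR-143 arrays were the higher ones, and the gap was smallest in replicate 4, at 0.068, and largest in replicate 2, at 0.36. The mean was 9.30 ± 0.06 against 9.08 ± 0.07 (SD, n = 4 each), a log2 fold change of 0.22 (standard error 0.059, limma without pairing, unadjusted p = 0.00436, adjusted p = 0.9999), and the exact two-sided permutation p was 0.0286. With pairs the adjusted p from limma was 0.155, and with array weights KIF1C was the 1 kinesin called (adjusted p = 0.0475), beside 0.284% of all genes. This size of difference was read by 1 probe set of 3, and the other 2 had log2 fold changes of 0.018 and 0.027.

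The other transport kinesins differed little between the groups. KIF13B, an endosome and cell polarity motor, had values of 7.90, 7.77, 7.83 and 8.03 with miR-143 and 7.78, 7.80, 7.80 and 7.75 in mock. Its log2 fold change was 0.10 (standard error 0.064). Its groups overlapped, and replicate 2 was lower with miR-143. KIF5C, a conventional kinesin heavy chain best known from neurons, had 7.01, 7.03, 7.15 and 6.84 with miR-143 and 7.15, 7.03, 7.12 and 6.94 in mock. These overlapped, and the log2 fold change was −0.050 (standard error 0.078). KIF5B, the heavy chain made in most cell types, had a log2 fold change of 0.0053 by the probe set used and of −0.17 and −0.040 by its other 2. Of the 13 transport kinesins 10 had a positive log2 fold change and 3 a negative one, with a median of 0.016, while 55.6% of all genes were negative, with a median of −0.0091. The median was −0.0033 without mock replicate 3.

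**Figure D2:**
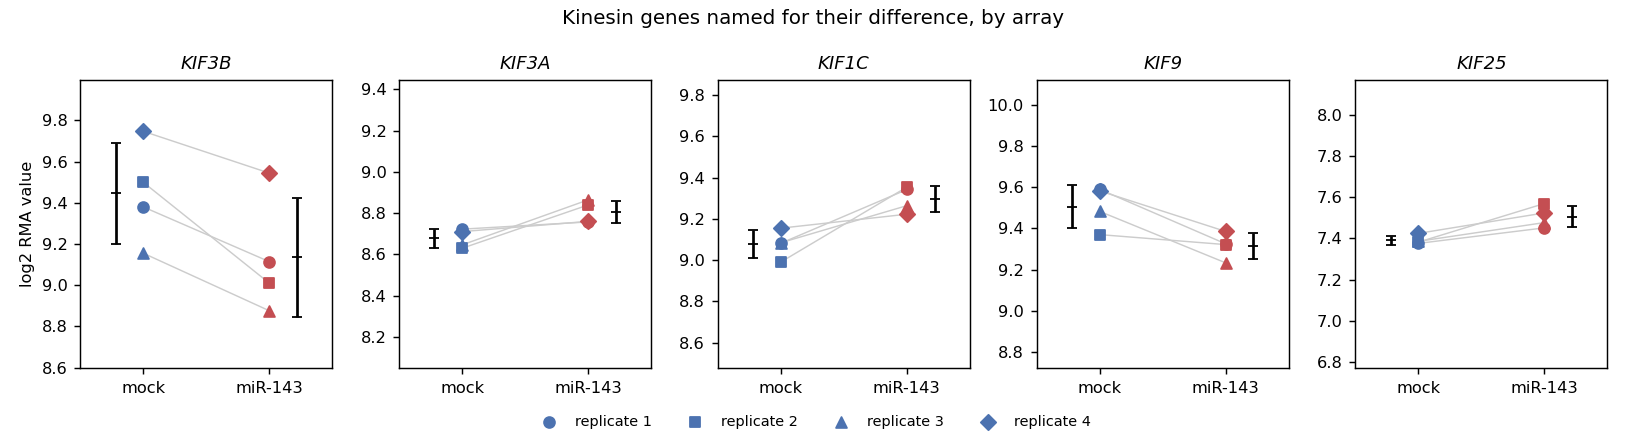
Log2 RMA value of KIF3B, KIF3A, KIF1C, KIF9 and KIF25 in each of 4 mock (blue) and 4 miR-143 (red) arrays, with a marker for each replicate number, grey lines joining equal numbers, and black bars for the mean ± SD of each group. Each panel has the same height in log2 units. The lines of KIF3B and KIF9 all run down, those of KIF3A, KIF1C and KIF25 all run up, and KIF3B has the widest spread within its groups.

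The median log2 fold change of the 12 mitotic kinesins was −0.080, with 8 of them negative, but none passed the test. The median was 0.000059 without mock replicate 4 and −0.086 without replicate 4 of both groups. KIF15, KIF2C and KIF11 had the most negative log2 fold changes and KIF23, KIF18B and KIF2B the most positive. In bulk RNA fewer cells in mitosis and less RNA per cell cannot be told apart.

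KIF15, a kinesin-12 that keeps the spindle bipolar, had values of 8.22, 8.20, 8.03 and 8.50 with miR-143 and 8.43, 8.30, 8.23 and 8.58 in mock. The groups overlapped, but the miR-143 array was the lower one within each replicate number. Its log2 fold change was −0.15 (standard error 0.11 without pairing and 0.050 with pairing, limma adjusted p = 0.9999 and 0.317). KIF11, the kinesin-5 that pushes spindle poles apart, had 10.37, 10.32, 10.16 and 10.64 with miR-143 and 10.53, 10.48, 10.19 and 10.85 in mock. It too was lower in each replicate number, least in replicate 3, by 0.035, and its log2 fold change was −0.14 (standard error 0.14 without pairing and 0.051 with pairing, limma adjusted p = 0.9999 and 0.356). KIF2C, which removes tubulin from microtubule ends at kinetochores, had 10.32, 10.14, 10.02 and 10.52 against 10.29, 10.34, 10.35 and 10.60. Replicate 1 was not lower with miR-143, and the log2 fold change was −0.14 (standard error 0.11 without pairing and 0.062 with pairing, limma adjusted p = 0.9999 and 0.483).

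KIF23, a subunit of the centralspindlin complex of cytokinesis, had values of 10.06, 10.07, 10.14 and 10.29 with miR-143 and 10.09, 9.96, 9.96 and 10.33 in mock. The log2 fold change was 0.057 (standard error 0.092). KIF18B, which shortens astral microtubules, had 10.20, 10.06, 10.05 and 10.20 against 10.06, 9.89, 10.13 and 10.27, a log2 fold change of 0.043 (standard error 0.083). For both genes 2 replicate numbers were higher and 2 lower with miR-143. KIF2B had values of 6.74 to 6.87 in all 8 arrays and a log2 fold change of 0.029 (standard error 0.052). These values lay below the array medians of 7.26 to 7.33, so a change of KIF2B may not be visible. The remaining mitotic kinesins ran from −0.12 for KIF18A, which dampens chromosome movement, to 0.011 for KIF22, a motor on chromosome arms. KIF4A, another chromosome arm motor, had −0.098, but its probe set may also read the near-identical KIF4B. KIF20A, which brings Aurora B to the midzone, was at −0.075 and, like KIF11 and KIF15, lower in all 4 replicate numbers. Such a run of 4 negative differences was found in 3 of 12 mitotic kinesins, in 1 of 13 transport kinesins, KIF3B, in 3 of 13 other kinesins, KIF9, KIF24 and KIF27, and in 10.9% of all genes. A run of 4 positive ones was found in 0 mitotic, 2 transport kinesins, KIF1C and KIF3A, 2 other kinesins, KIF21B and KIF25, and in 6.54% of all genes.

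**Figure D3:**
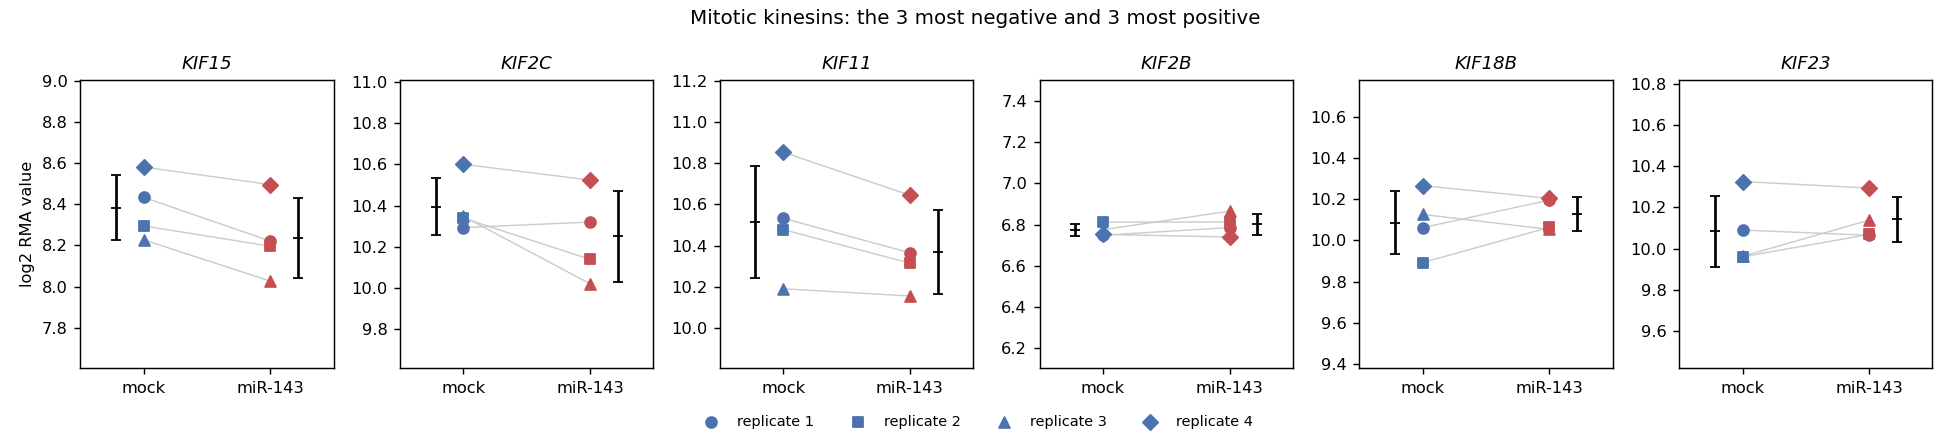
Log2 RMA value of the 3 mitotic kinesins with the most negative log2 fold change (KIF15, KIF2C, KIF11) and the 3 with the most positive (KIF2B, KIF18B, KIF23) in each mock (blue) and miR-143 (red) array, with markers for replicate numbers, grey lines joining equal numbers and black bars for the mean ± SD (n = 4). Replicate 4 is the highest array of both groups for all but KIF2B, by a narrow margin for KIF18B with miR-143, and the groups overlap in all 6 panels.

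The class medians of mitotic and transport kinesins differed mainly in how far they moved between arrays. Each gene was expressed as its deviation from its own mean over the 8 arrays, and the median was taken over a class. For mitotic kinesins this median was −0.049, −0.069, −0.26 and 0.18 in miR-143 replicates 1 to 4 and −0.0022, −0.015, −0.094 and 0.27 in mock. Both replicate 4 arrays were high and miR-143 replicate 3 was the lowest. For transport kinesins it was 0.0092, 0.034, 0.0071 and 0.020 with miR-143 and −0.0048, −0.0061, −0.041 and −0.032 in mock, so all 8 arrays lay within 0.05 of 0. Every miR-143 array lay above every mock array, but at the closest by 0.0071 against −0.0048. The median over all genes itself ran from −0.030 in miR-143 replicate 3 to 0.038 in mock replicate 4. Replicate 4 exceeded the mean of replicates 1 to 3 in both groups for 11 of 12 mitotic kinesins, all but KIF2B, for 4 of 13 transport kinesins, for 7 of 13 other kinesins and for 47% of all genes. It did so too for 19 of 21 genes of dynein and dynactin, 11 of 12 tubulins and 7 of 10 epithelial markers. In the lists of lower level it did so for 0 of 6 fibroblast, 0 of 4 endothelial, 0 of 5 leukocyte and 1 of 5 neuronal markers. Replicate 4 lay below that mean in both groups for 1 of 12 mitotic, 5 of 13 transport and 5 of 13 other kinesins, and for 33.8% of all genes. Single transport kinesins thus moved to either side more than their median did. KIF3B rose by 0.54 with miR-143 and 0.40 in mock, and KIF5A fell by 0.37 and 0.11. KIF2B was the dimmest mitotic kinesin, with a mean of 6.79, and the means of transport kinesins ran from 7.04 to 12.56. The part of signal level in how far the values moved was not tested. Among mitotic kinesins the largest such step was that of KIF22 with miR-143, at 0.89, and that of KIF11 in mock, at 0.45. The list of 12 proliferation markers moved in the same arrays, with medians of −0.17, −0.12, −0.24 and 0.21 with miR-143 and 0.031, −0.032, −0.11 and 0.40 in mock, and the part of proliferation in the mitotic values was not tested.

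**Figure D4:**
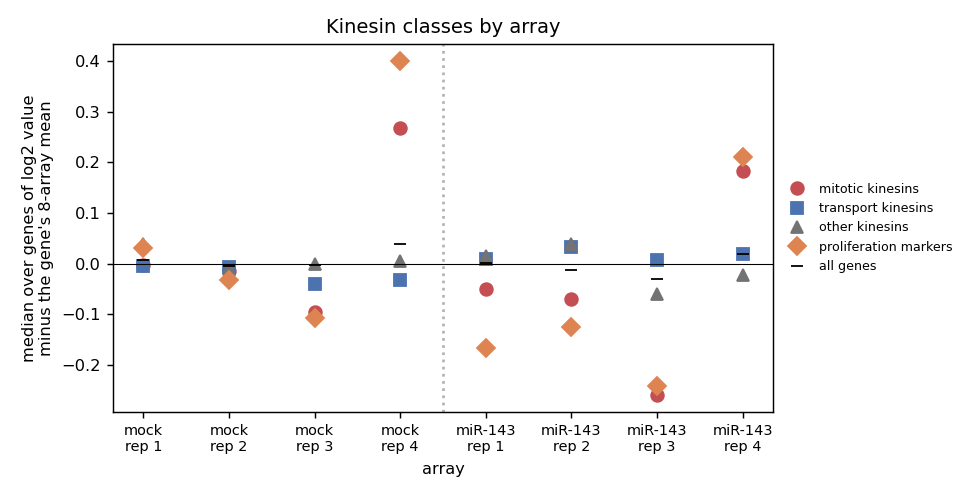
Median over the genes of a class of the log2 value minus the gene's mean over 8 arrays, for each mock array (left) and miR-143 array (right). Mitotic kinesins and proliferation markers lie highest in replicate 4 of both groups, at 0.27 and 0.40 in mock and 0.18 and 0.21 with miR-143. The median of transport kinesins stays between −0.041 and 0.034.

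The median log2 fold change of mitotic kinesins minus that of transport kinesins was −0.096. Taken array by array from the class medians above, mitotic minus transport varied within a group with an SD of 0.17, more than this difference, and replicate 4 was the highest array of both groups. Within replicate numbers 1 to 4 the miR-143 array minus the mock array was −0.061, −0.094, −0.21 and −0.14 on that measure. The mean was −0.13 ± 0.065 (SD over 4 pairs), and that SD is a spread between pairs only if equal numbers mark pairs. As medians of the differences of single genes, the mitotic value within replicate numbers 1 to 4 was −0.048, −0.025, −0.13 and −0.049 and the transport value was −0.029, 0.0049, 0.032 and 0.026, the mitotic one being lower in each. No test was run on the difference, since the classes were drawn up with results of these arrays known. With 1 array left out in turn it ran from −0.19 without miR-143 replicate 4 to −0.032 without mock replicate 4, and it was −0.049 without miR-143 replicate 3. Without mock replicate 4, 6 of 12 mitotic and 5 of 13 transport kinesins were negative, beside 51.8% of all genes, and without miR-143 replicate 3 the mitotic median was 0.0013. Without replicate 4 of both groups, 9 of 12 mitotic kinesins were negative, with a median of −0.086, and 4 of 13 transport kinesins, with a median of 0.013.

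The promoters of the 2 classes differed in some letters and hardly in others, and the choice of members did not use them. RefSeq windows from 250 bases before to 50 after the first listed start (GRCh38.p14) were matched for 32 of the 38 genes, all but KIF5A, KIF13B, KIF19, KIF21B, KIF26B and KIF27. The letters TTTGAA, the core of the cell cycle homology region (CHR) that represses genes of late cell cycle until G2, stood on either strand in 8 of 12 mitotic, 1 of 11 transport and 0 of 9 other kinesin windows, against 15.4% of 27305 windows of that length. CCAAT stood in 9 of 12 mitotic, 3 of 11 transport and 3 of 9 other windows, against 35.7% of all, and both motifs together in 7, 1 and 0, against 6.08%. The E2F letters TTCCCGC or TTGGCGC stood in 3 of 12, 3 of 11 and 1 of 9, against 9.33%, and the GC box GGGCGG in 10, 9 and 9, against 44.6%. A match is a description of letters and not a site. None of these motifs contains another, though a match to CCAAT on the other strand can overlap one to TTGGCGC. The following 30-base stretches, all upstream of the start, show the match in capitals (TTCAAA where it lies on the other strand) for the most negative mitotic kinesins that hold it, KIF15 and KIF11, beside KIF4A and the most positive, KIF23.
KIF15 (chr3:44761747-44761776, plus strand): ccaagcgccaaaTTCAAAtttgcggccatc
KIF11 (chr10:92593090-92593119, plus strand): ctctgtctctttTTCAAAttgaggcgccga
KIF4A (chrX:70290058-70290087, plus strand): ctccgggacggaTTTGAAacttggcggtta
KIF23 (chr15:69414282-69414311, plus strand): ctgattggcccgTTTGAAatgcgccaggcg
KIF15 and KIF11, with log2 fold changes of −0.15 and −0.14, thus share the letters with KIF23, at 0.057, while KIF2C, at −0.14, lacked them in its window.

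Among the kinesins outside both classes KIF9 lay lower and KIF25 higher. KIF9, a kinesin of motile cilia, had values of 9.32, 9.32, 9.23 and 9.38 with miR-143 and 9.59, 9.37, 9.48 and 9.58 in mock. The miR-143 array was lower within each replicate number, and the groups met only where miR-143 replicate 4 lay just above mock replicate 2. The log2 fold change was −0.19 (standard error 0.066, limma without pairing, unadjusted p = 0.0176, adjusted p = 0.9999), with an exact two-sided permutation p of 0.0571 and an adjusted p of 0.194 with pairs. Of its 4 probe sets 3 are of a type whose probes may match other transcripts, and these had log2 fold changes of −0.19, −0.11 and −0.16. The remaining one had 0.0080. KIF25, a kinesin linked to centrosome positioning, had values of 7.45, 7.57, 7.48 and 7.52 against 7.38, 7.38, 7.39 and 7.42, a log2 fold change of 0.11 (standard error 0.051, limma adjusted p = 0.9999) with groups that did not overlap (exact two-sided permutation p = 0.0286). Its probe set is also of the type that may match other transcripts, its values were near those of the lists of absent cell types, and its other probe set had −0.035. The other 11 ran from −0.086 for KIF2A, a microtubule depolymerase, to 0.057 for KIF12, and the median of the 13 was −0.0027. Of the 24 kinesins with more than 1 probe set, 10 had the same sign in all of them.

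Genes that work with kinesins, and markers of proliferation, were read from lists drawn up for this work, and limma without pairing called 0 of them. At an unadjusted p under 0.05 there were 1 of 16 light chains and cargo adaptors and 1 of 12 proliferation markers. In the other lists, of 5, 15, 21 and 12 measured genes, there were 0, and over all genes 2.41%. The 2 genes were the light chain KLC2, which links KIF5 motors to cargo, and CDK1, the mitotic kinase. Both lay lower in every miR-143 array than in any mock array, as did 1.24% of all genes. CDK1 was at 11.92 to 12.19 against 12.25 to 12.56 (limma without pairing, unadjusted p = 0.00507, adjusted p = 0.9999). KLC2 was at 8.22 to 8.40 against 8.43 to 8.57. Its log2 fold change was −0.16 (standard error 0.062, limma unadjusted p = 0.0287, adjusted p = 0.9999). Of 16 measured light chains and cargo adaptors 6 were negative, with a median of 0.016. Of 5 kinesins whose symbols fall outside the rule 3 were negative, with a median of −0.030, and the largest difference was that of KIFC3, at 0.096. Of 15 partners of mitotic kinesins 10 were negative, with a median of −0.028. NUSAP1, a spindle microtubule protein, had −0.18 (standard error 0.11) and ANLN, a scaffold of the cytokinetic ring, 0.16 (standard error 0.11). Dynein and dynactin, which move cargo in the opposite direction, had 12 of 21 genes negative, with a median of −0.017. Tubulins had 10 of 12 negative, with a median of −0.098, the lowest being TUBG1 at −0.30 (standard error 0.15). The 12 proliferation markers had a median of −0.16, and 11 were below 0. Among them CDK1 was the 1 gene of these lists called with pairing, where 0.79% of all genes were (log2 fold change −0.32, standard error 0.057, limma adjusted p = 0.0298). Without mock replicate 4 the medians of the mitotic partners, tubulins and proliferation markers were 0.053, 0.0014 and −0.052. Without replicate 4 of both groups they were −0.054, −0.15 and −0.14, with 11 of 15, 10 of 12 and 12 of 12 genes negative.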

How the data were processed

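Total RNA was measured on Affymetrix HG-U133 Plus 2.0 arrays, 1 per culture. Per the labels, the authors made the deposited log2 values with RMA in the affy package, whose versions are not given in the sources used here. RMA gives no detection call, and the lowest value was 5.77, so changes of dim genes may be understated. Arrays have no depth, and their number limits the precision.

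Of 54675 probe sets 41091 carried 1 gene symbol, 1801 several and 11721 none, and 62 were controls. Symbols were updated by Entrez identifier (41037) or by name (48). For each of 19752 genes the probe set of highest mean was used. The groups were compared over all genes with limma 3.58.1 (lmFit, eBayes, two-sided) in R 4.3.3, with p-values adjusted by Benjamini and Hochberg and 0.05 as the threshold. The scripts were tested on simulated data. Tables used Python 3.11.15, numpy 2.4.6, pandas 2.3.3 and scipy 1.17.1.

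The replicate numbers were taken as pairs because arrays of equal number deviated together from the means of their groups, with correlations over genes above the limit of 0.1 for each number, at 0.109, 0.166, 0.576 and 0.808. The labels do not say what a number stands for, and the first value is close to the limit. Arrays of unequal number were not compared in this way. The group means include replicate 4, whose arrays lay far from the others in both groups. The remaining arrays may therefore deviate to the same side whatever their number. Calls and spreads with pairs hold only if equal numbers mark pairs, which these correlations cannot decide.

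Values of every array are given for kinesins called with or without pairs, those at an unadjusted p under 0.05, those whose groups do not overlap, the 3 most negative and 3 most positive of the mitotic and transport classes, and KIF3B. In the other lists, genes called and the 2 of lowest p could be named. KIF5B, KIF22, KIF20A and other members given by fold change alone illustrate roles. Members and lists were chosen with earlier results of these data known. Alternatives were pairing, leaving out arrays or replicate numbers, array weights, cyclic loess, the mean of all probe sets of a gene, filters at a mean of 6 and 7, and an intensity trend.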

Additional observations from a re-analysis of the deposited data

Results flagged for a closer look

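In KIF21B, 1 of the kinesins outside both classes, replicate 4 stood apart from the other arrays of both groups. It was at 7.33 with miR-143 against 7.62 to 7.67 in the other arrays, and at 7.32 in mock against 7.57 to 7.60. In KIF26A, miR-143 replicate 3 was at 7.0 against 7.15 to 7.18. Of 76 sets of 4 arrays 3 were marked in this way, where chance marks about 1 in 20.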

How the results depend on the processing

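The number of arrays and the low end of the RMA scale limit what could be seen. With the replicate number as a block, limma called 156 genes and 1 kinesin (KIF3B, log2 fold change −0.31), and with array weights 56 genes and 1 kinesin (KIF1C, 0.27), where the comparison without either called 0 of both. Cyclic loess gave 52 genes and moved the transport median to 0.047, the mitotic median to −0.040 (7 of 12 negative) and the median of all genes from −0.0091 to 0.0032 (47.9% negative), with 0 kinesins called. Without replicate 4 of both groups, chosen after seeing the data, 43 genes and 0 kinesins were called. A filter at a mean of 7, also chosen after seeing the data, and one at 6, which removed 0 genes, changed no call. With the block and 1 replicate number left out, 73, 79, 42 and 58 genes were called without numbers 1 to 4, and the transport median was 0.013 to 0.045. With 1 array left out and no block, 0 genes were called, and the transport median ran from −0.0033 to 0.050, the mitotic median from −0.17 to 0.0013. Signs of uncalled kinesins changed as follows. With the mean of all probe sets these were KIF3A (−0.0018), KIF3C (0.013), KIF5B (−0.069) and KIF22 (−0.010), and KIF22 also changed with array weights (−0.065) and without replicate 4 of both groups (−0.10). With 1 array left out, the ranges that crossed 0 were −0.098 to 0.0050 for KIF5C, −0.082 to 0.014 for KIF3C, −0.022 to 0.10 for KIF18B, −0.071 to 0.12 for KIF5B, −0.21 to 0.13 for KIF22, −0.18 to 0.016 for KIF20A, −0.16 to 0.0088 for KIF2A and −0.0054 to 0.14 for KIF12. With the block, KIF18B (−0.00013) and KIF5B (−0.060) changed without replicate 2, KIF5B (−0.042) without replicate 3, and KIF22 without replicate 1 (−0.038) or 4 (−0.10). Kinesins without a fold change in the text were not followed through these settings. The causes were not tested. The replicate block changed no other kinesin call.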
